A study of Mus musculus with 61 samples.

Results

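The net change of polyadenylated RNA across the first cleavage of the mouse embryo was measured as 30-36hpi against 12-18hpi, where hpi stands for hours post insemination. The comparison rests on 6 libraries of the 61 samples in the series, chosen by their labels: 3 of embryos labelled with 4-thiouridine (4SU) from 30 to 36hpi and 3 of embryos labelled from 12 to 18hpi. All were wild-type mouse embryos made by in vitro fertilisation of oocytes from superovulated females and kept in KSOM medium, and each library pooled 10 embryos. The labels name no strain, sex or cell number. The windows between them, 18-24hpi and 24-30hpi (3 libraries each), show how each gene travelled. SLAM-seq feeds cells a uridine analogue, here 2 mM 4SU for 6 h, and alkylates the RNA with iodoacetamide so that newly made RNA carries T-to-C changes in its reads. The deposited counts do not say whether converted reads were set apart, so they are read here as total polyadenylated RNA.

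A mouse zygote inherits its first messenger RNA from the oocyte, which stores transcripts during growth and falls silent before ovulation. A minor wave of transcription begins in the zygote, a major wave follows in the 2-cell embryo, and the maternal transcripts are meanwhile shortened, decapped and degraded. The earlier window covers hours at which mouse embryos are zygotes as a rule, and the later one hours at which they are at the 2-cell stage.

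Total gene counts ran from 7488257 to 10259007 reads at 30-36hpi and from 9242252 to 10812030 reads at 12-18hpi, and replicates correlated across genes at r = 0.96 to 0.962 and 0.968 to 0.976. No pair agreed within sampling noise (chi-square per degree of freedom 7.37 to 15.4). The 10 most abundant genes took 2.71 to 2.81% of reads at 30-36hpi and 5.03 to 5.38% at 12-18hpi. A list of 9 oocyte-derived transcripts summed to 1279 to 1558 CPM (read counts scaled to a common library total) at 30-36hpi and 12100 to 12690 CPM at 12-18hpi, with 8 called lower and 1 (Zp3) higher. 9 measured 2-cell markers summed to 366 to 601.8 CPM at 30-36hpi and 767.8 to 938.6 CPM at 12-18hpi, so this marker list did not set the later window above the earlier one. Markers of cumulus cells, which surround the egg, summed to 150.8 to 176.4 CPM at 30-36hpi and 100.6 to 126.1 CPM at 12-18hpi. Of 19 in the table, 3 were called higher and 3 lower, 5 had no reads at 30-36hpi and 3 none at 12-18hpi. Most of the sum was Gja1 and Amhr2 at 30-36hpi and Cyp19a1 at 12-18hpi, while Nr5a1 and Amh had no read. Sperm and spermatid markers summed to 57.06 to 69.2 CPM at 30-36hpi and 201.3 to 229.9 CPM at 12-18hpi, mostly Odf2, with 1 called higher and 2 lower of 16. 4 of them had no reads at 30-36hpi and 4 none at 12-18hpi, among them Spem1 in both windows and the transition protein gene Tnp2 at 30-36hpi. The part of such cells in the results was not tested. Since no spike-in is stated, all levels are shares of the RNA of 10 embryos, and fewer transcripts per embryo cannot be told apart from a larger pool of other transcripts.

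Most of the measured messenger RNAs differed between these windows. Of 16234 tested genes, 12064 were called (74.3%), 5403 of them higher (33.3%) and 6661 lower (41%) at 30-36hpi, by edgeR's quasi-likelihood test at a Benjamini-Hochberg adjusted p under 0.05, the test behind every adjusted p given here. At least 2-fold changes made up 4769 of the rises (29.4% of tested genes) and 5767 of the falls (35.5% of tested genes), and at least 8-fold changes 2524 (15.5%) and 2419 (14.9%). The libraries of both windows did not overlap in 12124 genes (74.7%), of which 11508 were also called (70.9% of those tested). The log2 fold changes spread from -4.76 at the 5th percentile to 5.39 at the 95th, with a median of -0.29. That median depends on the scaling. Rises made up 44.8% of the calls with the TMM factors used here, against 55.4% (6594 higher and 5301 lower) with total count scaling, where the median of all genes was 0.23, so a list is read against the median of all genes. With any library of 12-18hpi left out the share was 52.1 to 52.4%.

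The share of reads held by the called genes passed from the falling to the rising genes over all 3 steps. Genes called higher held 55% ± 0.892 of reads at 30-36hpi and 9.9% ± 0.251 at 12-18hpi (SD, n = 3 libraries each, as for every ± below), with 15.1% at 18-24hpi and 32.3% at 24-30hpi between them. Genes called lower held 32.4% ± 0.81 at 30-36hpi and 80.9% ± 0.318 at 12-18hpi, with 74.3% and 54.8% between them. The genes not called held 12.6% at 30-36hpi and 9.12% at 12-18hpi. These shares describe genes chosen by the same comparison.

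**Figure D1:**
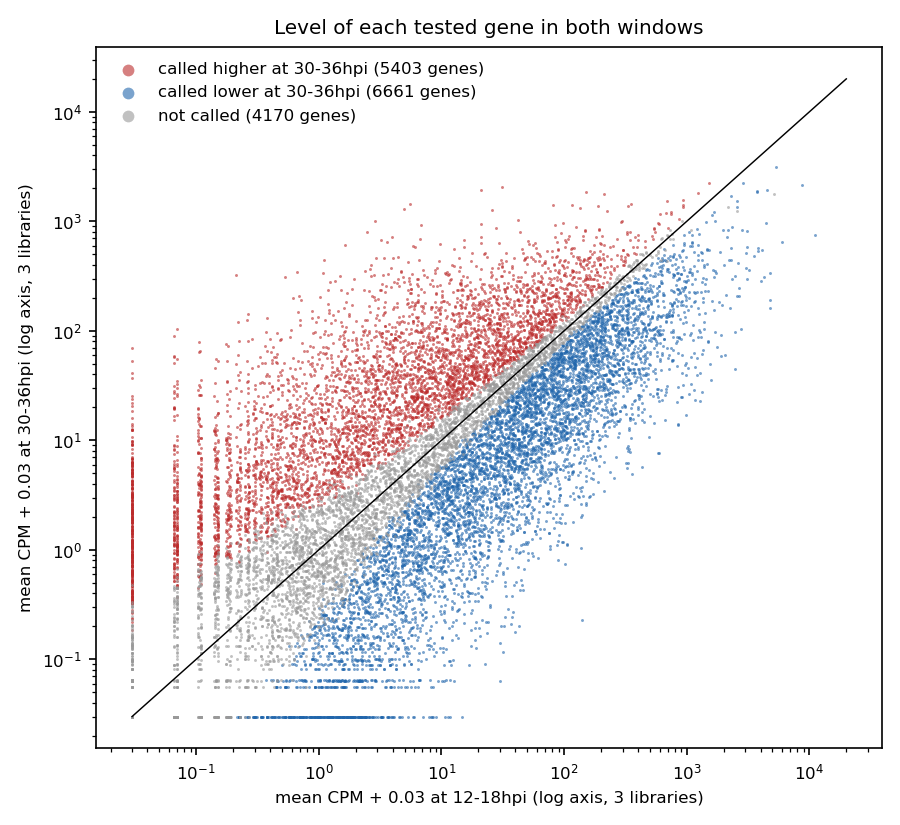
Mean level of each of the 16234 tested genes at 30-36hpi (vertical) and at 12-18hpi (horizontal), both in CPM + 0.03 on log axes, means of 3 libraries; the line marks equal levels. The 5403 genes called higher (red) and the 6661 called lower (blue) lie on either side of the 4170 not called (grey), and the columns and rows of points at the edges are genes with no or few reads in one window.

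The 14 genes with the highest fitted fold changes were all but unread in the earlier window, so the order among such genes rests on the fit and not on the reads. H2-Q6, a class I major histocompatibility gene of the Q region on chromosome 17 (35424850 to 35430055, GRCm38.p6), stood at 59.1, 87.4 and 61.2 CPM at 30-36hpi, against 0 CPM in all 3 libraries at 12-18hpi. With no read at 12-18hpi it was at least 597-fold higher at 30-36hpi, measured against a floor of 3 reads over the 3 libraries (0.116 CPM). Its neighbour H2-Q7 (35439140 to 35443773) had 33.7, 44.7 and 33 CPM at 30-36hpi, against 0 CPM in all 3 libraries at 12-18hpi, at least 320-fold higher. Reads of this pair can be shared, since the genes are close copies. Chrna10, a nicotinic acetylcholine receptor subunit, had 48, 58.7 and 52.1 CPM at 30-36hpi, against 0 CPM in all 3 libraries at 12-18hpi, at least 456-fold higher. Rgs11, a regulator of G protein signalling, was at least 358-fold higher (41.5 CPM at 30-36hpi, against 0 CPM at 12-18hpi). The naming rule required that the libraries of the windows not overlap in each of these genes. Rcn3, a calcium-binding protein of the endoplasmic reticulum, Slc27a5, an acyl-CoA synthetase of bile acid handling, Apol7e, an apolipoprotein L gene, and Lrrc15, a leucine-rich repeat membrane protein, had no read at 12-18hpi either and were at least 217, 203, 189 and 176-fold higher.

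Several of these genes had 1 read in 1 library of 12-18hpi. Arg1, which splits arginine into ornithine and urea, stood at 129, 103 and 79.3 CPM at 30-36hpi, against 0, 0.119 and 0 CPM at 12-18hpi (ratio 2700, 95% counting interval 484 to 107000). Fgf4, the fibroblast growth factor of the early embryo, stood at 102, 86.1 and 79 CPM at 30-36hpi, against 0, 0 and 0.109 CPM at 12-18hpi (ratio 2300, 95% counting interval 412 to 90700). Mta2, a subunit of the NuRD deacetylase complex, had 54.7 ± 5.02 CPM at 30-36hpi, against 0.0401 ± 0.0695 CPM at 12-18hpi. Sapcd2, a regulator of spindle orientation, averaged 57.2 ± 2.33 CPM at 30-36hpi, against 0.0364 ± 0.063 CPM at 12-18hpi. Fam212a averaged 59 ± 7.51 CPM at 30-36hpi, against 0.0364 ± 0.063 CPM at 12-18hpi. Exoc3l2, an exocyst-related gene on chromosome 7 (19463287 to 19496762), was the most abundant of the 14, with 319, 317 and 326 CPM at 30-36hpi, against 0, 0 and 0.545 CPM at 12-18hpi (log2 fold change 10.61 with an SE of 0.62, adjusted p = 5.65e-14). In all, 87 genes had at most 3 reads over the 12-18hpi libraries and at least 10 CPM at 30-36hpi. With a library of 12-18hpi left out there were 122 to 163, where the same limit of 3 reads covered fewer libraries. Rtn2, a reticulon, at 65.5 CPM, and Cst7, a cysteine protease inhibitor, at 63.8 CPM were among the most abundant of the 87 beside Arg1, Fgf4 and H2-Q6. Fgf4 and Exoc3l2 rose through every window: Fgf4 averaged 0.0364 CPM at 12-18hpi, 6.61 at 18-24hpi, 39.8 at 24-30hpi and 89 at 30-36hpi, and Exoc3l2 0.182 CPM at 12-18hpi, 10.01 at 18-24hpi, 86.9 at 24-30hpi and 321 at 30-36hpi.

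**Figure D2:**
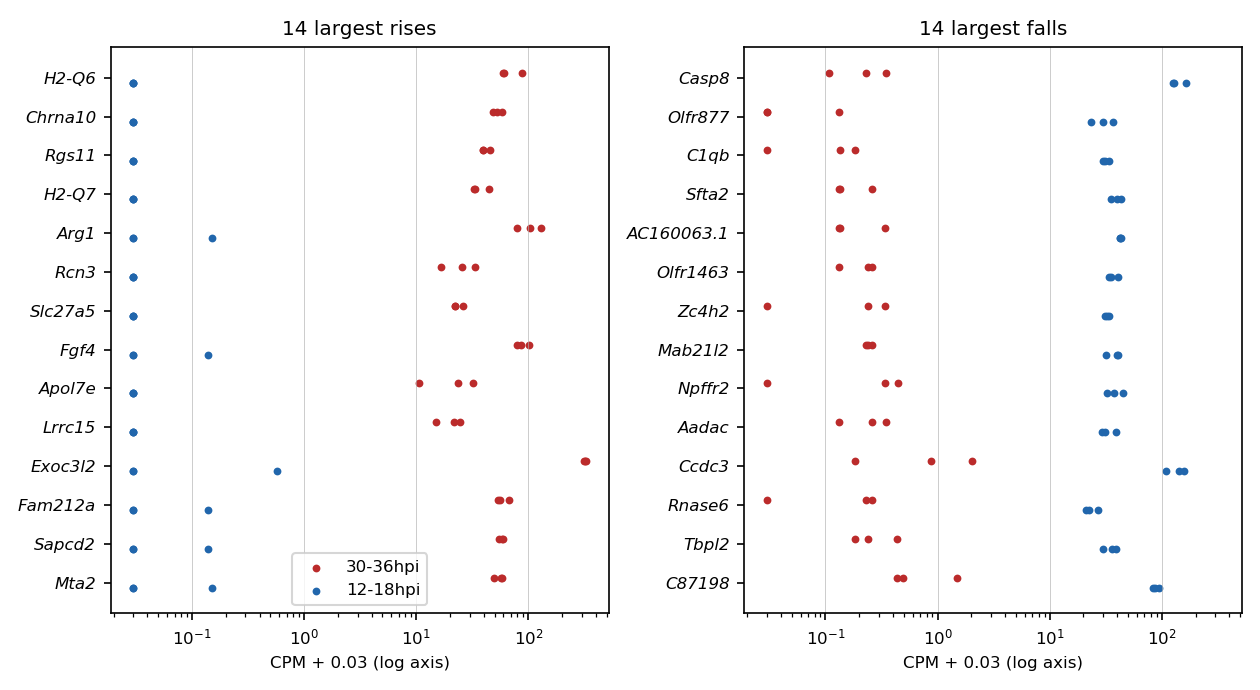
CPM + 0.03 on a log axis in each of the 3 libraries of 30-36hpi (red) and of 12-18hpi (blue) for the 14 genes with the highest and the 14 with the lowest log2 fold change under the naming rule. Points at the left edge are libraries with no read, and in none of the 28 genes do the windows overlap, which the naming rule required.

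The 14 genes with the lowest fitted fold changes were near the reading floor at 30-36hpi. Casp8, the initiator caspase of death receptor signalling (chromosome 1, 58795233 to 58847503), fell to 0.201, 0.0773 and 0.314 CPM at 30-36hpi, against 127, 165 and 128 CPM at 12-18hpi (log2 fold change -9.46 with an SE of 0.60, adjusted p = 2.52e-14). Every library of 30-36hpi was under 1 CPM and every library of 12-18hpi above 120 CPM. Tbpl2, the oocyte paralogue of the TATA-binding protein, fell to 0.403, 0.155 and 0.209 CPM at 30-36hpi, against 29.7, 39 and 36.2 CPM at 12-18hpi (log2 fold change -7.07 with an SE of 0.41, adjusted p = 2.35e-16). Ccdc3, a secreted coiled-coil protein, had 2.01, 0.155 and 0.836 CPM at 30-36hpi, against 109.7, 157 and 143 CPM at 12-18hpi (log2 fold change -7.16 with an SE of 0.39, adjusted p = 5.78e-18). Most of its fall lay in the first step, with 137 CPM at 12-18hpi, 19.6 at 18-24hpi, 5.02 at 24-30hpi and 1 at 30-36hpi. C1qb, a complement chain, had 3 reads in all at 30-36hpi and averaged 0.0864 ± 0.0789 CPM at 30-36hpi, against 31.6 ± 1.92 CPM at 12-18hpi. The olfactory receptor gene Olfr877 had 1 read in all at 30-36hpi and averaged 0.0336 ± 0.0581 CPM at 30-36hpi, against 29.9 ± 6.42 CPM at 12-18hpi. Olfr1463, another olfactory receptor gene, fell to 0.18 ± 0.0701 CPM at 30-36hpi, against 36.5 ± 3.4 CPM at 12-18hpi. Sfta2, a surfactant-associated gene, stood at 0.146 ± 0.0747 CPM at 30-36hpi, against 39.5 ± 4.25 CPM at 12-18hpi. Npffr2, a neuropeptide receptor, stood at 0.242 ± 0.217 CPM at 30-36hpi, against 38.5 ± 6.27 CPM at 12-18hpi. Aadac, an arylacetamide deacetylase, stood at 0.215 ± 0.107 CPM at 30-36hpi, against 33.1 ± 5.03 CPM at 12-18hpi. Rnase6, a ribonuclease, stood at 0.144 ± 0.126 CPM at 30-36hpi, against 23.4 ± 2.92 CPM at 12-18hpi. Zc4h2, a zinc finger gene (0.173 CPM at 30-36hpi, against 32.5 CPM at 12-18hpi, log2 fold change -7.37 with an SE of 0.62), Mab21l2, a developmental regulator (0.214 CPM at 30-36hpi, against 37.3 CPM at 12-18hpi, log2 fold change -7.35 with an SE of 0.52), and C87198 (0.777 CPM at 30-36hpi, against 88.3 CPM at 12-18hpi, log2 fold change -6.86 with an SE of 0.39) complete the set with the clone gene AC160063.1 (0.172 CPM at 30-36hpi, against 42.5 CPM at 12-18hpi, log2 fold change -7.76 with an SE of 0.55). Only 23 genes had at most 3 reads over the 30-36hpi libraries and at least 10 CPM at 12-18hpi, C1qb and Olfr877 first, with Cyp2j12, a cytochrome P450, Cdh20, a cadherin, and Ccdc105 after them. Without a library of 30-36hpi, and with the limit of 3 reads unchanged, the count was 41 to 46. It was 13 with total count scaling.

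By CPM gained or lost, other genes led. Ctsl, the lysosomal protease cathepsin L, had 1786, 2156 and 2237 CPM at 30-36hpi, against 20.4, 29.9 and 42.8 CPM at 12-18hpi (log2 fold change 6.05 with an SE of 0.38, adjusted p = 1.87e-12). Prps1, which makes the sugar phosphate from which nucleotides are built, had 1812, 1683 and 2324 CPM at 30-36hpi, against 10.2, 24.8 and 27.5 CPM at 12-18hpi (log2 fold change 6.54 with an SE of 0.35, adjusted p = 5.87e-14). The chaperone Hspa8 had 1638, 1960 and 1950 CPM at 30-36hpi, against 138, 153 and 157 CPM at 12-18hpi (log2 fold change 3.63 with an SE of 0.14, adjusted p = 1.33e-21). Alppl2, an alkaline phosphatase of the early embryo, had 1319, 1374 and 1591 CPM at 30-36hpi, against 3.49, 3.7 and 9.38 CPM at 12-18hpi (log2 fold change 7.99 with an SE of 0.57, adjusted p = 3.2e-11). Windows did not overlap in any of them, as the naming rule required. Rplp0, a ribosomal stalk protein, averaged 1777 ± 262 CPM at 30-36hpi, against 213 ± 28.2 CPM at 12-18hpi. Dnajb9, a co-chaperone of the endoplasmic reticulum, averaged 1398 ± 33.5 CPM at 30-36hpi, against 80.9 ± 9.51 CPM at 12-18hpi. The largest losses were of stored oocyte transcripts. Zbed3, a member of the subcortical maternal complex, held 665, 754 and 842 CPM at 30-36hpi, against 11180, 11230 and 11040 CPM at 12-18hpi (log2 fold change -3.89 with an SE of 0.92, adjusted p = 0.000726). Spin1, a chromatin reader, held 2123, 2060 and 2304 CPM at 30-36hpi, against 7918, 9616 and 8568 CPM at 12-18hpi (log2 fold change -2.01 with an SE of 0.39, adjusted p = 8.48e-05). Tcl1, a coactivator of the AKT kinase, had 556, 650.1 and 742 CPM at 30-36hpi, against 5391, 6643 and 5883 CPM at 12-18hpi (log2 fold change -3.20 with an SE of 0.58, adjusted p = 4.07e-05). Tbc1d15, a GTPase-activating protein for Rab proteins, averaged 285 ± 5.15 CPM at 30-36hpi, against 4031 ± 144 CPM at 12-18hpi (log2 fold change -3.82). Bcl2l10, an oocyte member of the BCL2 family, averaged 193 ± 69.3 CPM at 30-36hpi, against 4732 ± 386 CPM at 12-18hpi. Bmp15, a growth factor made by oocytes, averaged 308 ± 30.3 CPM at 30-36hpi, against 4294 ± 202 CPM at 12-18hpi. At 18-24hpi Zbed3, Spin1 and Tcl1 stood at 11500, 9002 and 5702 CPM, not called against 12-18hpi (adjusted p = 0.987, 0.948 and 0.952), and at 24-30hpi at 3490, 5660 and 3656 CPM.

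Most genes of ribosome production rose, beside 33.3% higher and 41% lower among all tested genes. Among cytosolic ribosomal proteins, of 79 tested members, 77 were called higher and 1 lower (median log2 fold change 2.91), beside -0.29 for all tested genes. Rpl13 had 428, 495 and 484 CPM at 30-36hpi, against 17.3, 25.5 and 27.1 CPM at 12-18hpi (log2 fold change 4.33 with an SE of 0.15, adjusted p = 3.4e-23). Rpl23a had 185, 194 and 158 CPM at 30-36hpi, against 4.7, 5.49 and 8.07 CPM at 12-18hpi (log2 fold change 4.87 with an SE of 0.18, adjusted p = 3.91e-22). Rps15 had 135, 143 and 123.3 CPM at 30-36hpi, against 3.73, 3.7 and 6.11 CPM at 12-18hpi (log2 fold change 4.88 with an SE of 0.19, adjusted p = 9.47e-22). All 3 libraries of 30-36hpi lay far above those of 12-18hpi. Rps15a was the exception called lower, at 225 ± 15.7 CPM at 30-36hpi, against 353 ± 16.1 CPM at 12-18hpi (log2 fold change -0.65). That call was lost with total count scaling (log2 fold change -0.09, adjusted p = 0.464) and without any 1 library of 12-18hpi (adjusted p = 0.053 to 0.0855). Rps28 was not called (57.9 CPM at 30-36hpi, against 47.4 CPM at 12-18hpi, log2 fold change 0.29 with an SE of 0.17, adjusted p = 0.119). The rise was spread evenly: the median log2 step was 1.11 to 18-24hpi, 0.92 to 24-30hpi and 1.02 to 30-36hpi. Reads of ribosomal protein pseudogenes may be shared with these genes. Among ribosome biogenesis factors, which make, trim and assemble ribosomal RNA, of 95 tested members, 83 were called higher and 6 lower (median log2 fold change 2.45). Their median steps were 0.16, 1.16 and 1.07. Nop2, a ribosomal RNA methyltransferase, had 255, 226 and 241 CPM at 30-36hpi, against 2.17, 1.79 and 1.53 CPM at 12-18hpi (log2 fold change 7.04 with an SE of 0.25, adjusted p = 1.38e-22). Utp23, a processing factor of the small subunit, had 230.4, 231 and 253 CPM at 30-36hpi, against 1.32, 0.954 and 1.2 CPM at 12-18hpi (log2 fold change 7.67 with an SE of 0.28, adjusted p = 1.38e-22). Nhp2, a protein of the H/ACA guide RNA particle, averaged 351 ± 11.2 CPM at 30-36hpi, against 13.8 ± 2.12 CPM at 12-18hpi. Riok1, a kinase of late small-subunit maturation, went the other way, with 117, 112 and 133 CPM at 30-36hpi, against 1346, 1314 and 1489 CPM at 12-18hpi (log2 fold change -3.52 with an SE of 0.14, adjusted p = 5.8e-22). Bms1 (97.9 CPM at 30-36hpi, against 214 CPM at 12-18hpi, log2 fold change -1.13 with an SE of 0.16), Brix1 (639 CPM at 30-36hpi, against 1100 CPM at 12-18hpi, log2 fold change -0.78 with an SE of 0.13), Mphosph10, Npm1 and Nol10 were the other members called lower. With total count scaling 2 of the 95 were called lower: Brix1 was then not called (adjusted p = 0.0784), and Mphosph10, Npm1 and Nol10 had log2 fold changes of 0.04, 0.13 and 0.14 and no call. Mphosph10, Npm1 and Nol10 were not called without any 1 library of 12-18hpi or with the 6 libraries alone either.

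The start regions of these genes are shown because ribosomal and biogenesis genes moved together while the subcortical maternal complex genes described below moved the opposite way. Of the tested genes, 9621 matched by symbol to a single promoter of 300 bases in RefSeq (GRCm38.p6), 250 before and 50 after the start. The letters CCGGAA, the core recognised by ETS-family transcription factors, stand on either strand in 26.1% of the 9621 promoters, in 27 of 50 matched ribosomal protein promoters (54%), in 41 of 73 of biogenesis factors (56.2%) and in 0 of 9 of the maternal complex. The E-box CACGTG stands in 9.58% of all promoters, in 6% of those of ribosomal proteins, in 20.5% of those of biogenesis factors and in 0 of 9 of the maternal complex. Ribosomal and biogenesis promoters thus lie on either side of all genes for this motif. The GC box GGGCGG stands in 59.7% of all, 60% of ribosomal protein and 65.8% of biogenesis promoters and in 2 of 9 of the maternal complex (22.2%). CCAAT stands in 39.9% of all, 30% of ribosomal protein and 38.4% of biogenesis promoters and in 7 of 9 of the maternal complex (77.8%). Among 1557 genes at least 8-fold higher, CCGGAA stands in 25.8% and GGGCGG in 59.3% of promoters, against 16.9% and 41.1% among 1307 genes at least 8-fold lower. TATAAA stands in 8.61% of promoters of the 8-fold higher genes, 12.4% of those of the 8-fold lower genes and 8.46% of all, and CCAAT in 38.6%, 35.7% and 39.9% of the same groups. In ribosomal protein, biogenesis and maternal complex promoters TATAAA stands in 10%, 6.85% and 11.1%. None of the 5 motifs contains another, they were chosen with the results known, and no test was run. The 120 bases before the start follow, with CCGGAA or its reverse complement TTCCGG in capitals, for the first 3 genes by adjusted p in the ribosomal and in the biogenesis list that were called higher and hold it there, and for the first 2 of the maternal complex that match a single promoter (Uhrf1, which ranks between them, has more than 1 and was not used). They lie at chr3:86142669-86142788 (minus strand), chr4:86857368-86857487 (minus strand), chr9:44407594-44407713 (plus strand), chr11:51619653-51619772 (plus strand), chr6:125131763-125131882 (plus strand), chr17:46248046-46248165 (minus strand), chr9:78378589-78378708 (minus strand) and chr5:145009637-145009756 (minus strand).
Rps3a1: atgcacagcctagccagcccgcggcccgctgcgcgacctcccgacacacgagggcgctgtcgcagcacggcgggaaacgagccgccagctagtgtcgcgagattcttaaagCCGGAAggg
Rps6: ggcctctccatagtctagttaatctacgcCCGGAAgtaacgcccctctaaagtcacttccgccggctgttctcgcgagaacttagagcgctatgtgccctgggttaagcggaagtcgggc
Rps25: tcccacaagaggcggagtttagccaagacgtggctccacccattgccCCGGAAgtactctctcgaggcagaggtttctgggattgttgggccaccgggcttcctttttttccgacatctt
Nhp2: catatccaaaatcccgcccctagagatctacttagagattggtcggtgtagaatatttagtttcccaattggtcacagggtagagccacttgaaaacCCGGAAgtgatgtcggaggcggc
Nop2: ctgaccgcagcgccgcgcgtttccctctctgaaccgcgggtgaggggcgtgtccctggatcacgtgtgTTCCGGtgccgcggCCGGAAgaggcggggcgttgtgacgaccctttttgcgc
Polr1c: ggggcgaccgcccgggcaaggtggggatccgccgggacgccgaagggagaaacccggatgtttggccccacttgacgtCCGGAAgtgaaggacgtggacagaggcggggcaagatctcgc
Ooep: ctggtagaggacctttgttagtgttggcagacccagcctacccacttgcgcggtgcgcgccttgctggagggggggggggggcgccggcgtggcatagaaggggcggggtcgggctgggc
Kpna7: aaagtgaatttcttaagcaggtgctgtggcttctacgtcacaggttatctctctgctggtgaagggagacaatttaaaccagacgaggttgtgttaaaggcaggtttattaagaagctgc
Of the genes shown, Rps3a1, Rps6 and Rps25 changed by log2 3.47, 3.57 and 3.40, Nhp2, Nop2 and Polr1c, a subunit of RNA polymerases I and III, by 4.66, 7.04 and 4.76, and Ooep and Kpna7 by -4.41 and -4.76. The last pair holds neither form of the motif in the stretch shown.

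The rest of the translation apparatus was divided, beside 33.3% higher and 41% lower among all tested genes. Among translation factors, of 51 tested members, 34 were called higher and 15 lower (median log2 fold change 1.46). Pabpc1, the general poly(A)-binding protein, had 273, 289 and 273 CPM at 30-36hpi, against 7.11, 3.34 and 4.25 CPM at 12-18hpi (log2 fold change 5.83 with an SE of 0.23, adjusted p = 3.48e-21). Eif3c, Eif3a and Eif3m, subunits of the initiation complex eIF3, averaged 375, 659 and 367 CPM at 30-36hpi, against 25.7, 51.1 and 20.9 CPM at 12-18hpi (log2 fold changes 3.87, 3.69 and 4.13, with SEs of 0.16 to 0.18). Mitochondrial ribosomal proteins gave 42 of 78 higher and 24 lower (median log2 fold change 0.60). Mrpl20, Mrpl43 and Mrpl28 rose, averaging 175, 93 and 119.9 CPM at 30-36hpi, against 5.24, 1.06 and 4.59 CPM at 12-18hpi (log2 fold changes 5.05, 6.41 and 4.70, with SEs of 0.20 to 0.28). Mrpl48 fell to 27, 33.3 and 29.99 CPM at 30-36hpi, against 335, 336 and 313 CPM at 12-18hpi (log2 fold change -3.44 with an SE of 0.16, adjusted p = 2.88e-20). Aminoacyl-tRNA synthetases gave 21 of 38 higher and 12 lower (median log2 fold change 0.71), with the arginyl enzyme Rars at 320 ± 18.4 CPM at 30-36hpi, against 38 ± 4.32 CPM at 12-18hpi. The alanyl enzyme Aars averaged 92 ± 4.05 CPM at 30-36hpi, against 7.79 ± 1.84 CPM at 12-18hpi, the scaffold Aimp2 200.5 ± 15.8 CPM at 30-36hpi, against 24.9 ± 2.5 CPM at 12-18hpi. The phenylalanyl subunit Farsb fell to 128 ± 14.4 CPM at 30-36hpi, against 874 ± 94.9 CPM at 12-18hpi. Proteasome subunits gave 21 of 40 higher and 14 lower (median log2 fold change 0.75). The catalytic subunit Psmb5 averaged 126 ± 8.72 CPM at 30-36hpi, against 2.33 ± 1.01 CPM at 12-18hpi. The lid subunit Psmd7 averaged 445 ± 16.9 CPM at 30-36hpi, against 46.6 ± 1.62 CPM at 12-18hpi. Psmb1 averaged 228 ± 16.8 CPM at 30-36hpi, against 32.7 ± 1.79 CPM at 12-18hpi. Psmb7 stood at 97.7 ± 9 CPM at 30-36hpi, against 10.6 ± 0.223 CPM at 12-18hpi.

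Within complexes that read the genome and process RNA, some subunits rose and others fell, as among all tested genes (33.3% higher and 41% lower). RNA polymerase II and its general factors gave 33 of 64 higher and 21 lower (median log2 fold change 0.55). The shared subunit Polr2h had 193, 216 and 208 CPM at 30-36hpi, against 10.8, 21 and 16.4 CPM at 12-18hpi (log2 fold change 3.68 with an SE of 0.18, adjusted p = 2.36e-19). Polr2g had 56.7, 59.4 and 45.5 CPM at 30-36hpi, against 264, 403 and 292 CPM at 12-18hpi (log2 fold change -2.57 with an SE of 0.15, adjusted p = 2.37e-17). The groups did not overlap in either, as in 74.7% of all tested genes. Polr2c averaged 405 ± 47.7 CPM at 30-36hpi, against 1471 ± 36.1 CPM at 12-18hpi. Gtf2b, the factor that bridges promoter and polymerase, averaged 39.4 ± 7.78 CPM at 30-36hpi, against 457 ± 44 CPM at 12-18hpi (log2 fold change -3.54). Mediator, which links activators to the polymerase, gave 15 of 33 higher and 15 lower (median log2 fold change 0.06), and its median was below 0 without 30-36hpi replicate 1 (-0.01) or 3 (-0.14). Med29 had 294, 320.1 and 328 CPM at 30-36hpi, against 2.89, 1.55 and 3.38 CPM at 12-18hpi (log2 fold change 6.90 with an SE of 0.30, adjusted p = 1.72e-20). Med30 had 28.6, 25.5 and 32.8 CPM at 30-36hpi, against 586, 629.5 and 618 CPM at 12-18hpi (log2 fold change -4.40 with an SE of 0.14, adjusted p = 7.73e-24). Med15 averaged 18.8 ± 5.09 CPM at 30-36hpi, against 224 ± 30.7 CPM at 12-18hpi. Med27 averaged 228 ± 15.8 CPM at 30-36hpi, against 1052 ± 33.5 CPM at 12-18hpi. Splicing factors gave 40 of 74 higher and 25 lower (median log2 fold change 0.64): the snRNP proteins Snrpc and Snrpd2 rose, averaging 344 and 119 CPM at 30-36hpi, against 11.2 and 6.78 CPM at 12-18hpi (log2 fold changes 4.94 and 4.13, with SEs of 0.19 to 0.19), and Snrnp27 and Snrpb2 fell, averaging 60.6 and 101 CPM at 30-36hpi, against 630.1 and 609 CPM at 12-18hpi (log2 fold changes -3.38 and -2.59, with SEs of 0.11 to 0.14). Nuclear pore and import genes gave 26 of 56 higher and 21 lower (median log2 fold change 0.32). The importins Tnpo3, Kpna1 and Ipo7 rose, averaging 361, 309 and 394 CPM at 30-36hpi, against 8.82, 4.78 and 12.6 CPM at 12-18hpi (log2 fold changes 5.35, 6.01 and 4.96, with SEs of 0.19 to 0.25), while the pore subunit Nup37 averaged 44.1 ± 7.61 CPM at 30-36hpi, against 615 ± 55.5 CPM at 12-18hpi.

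**Figure D3:**
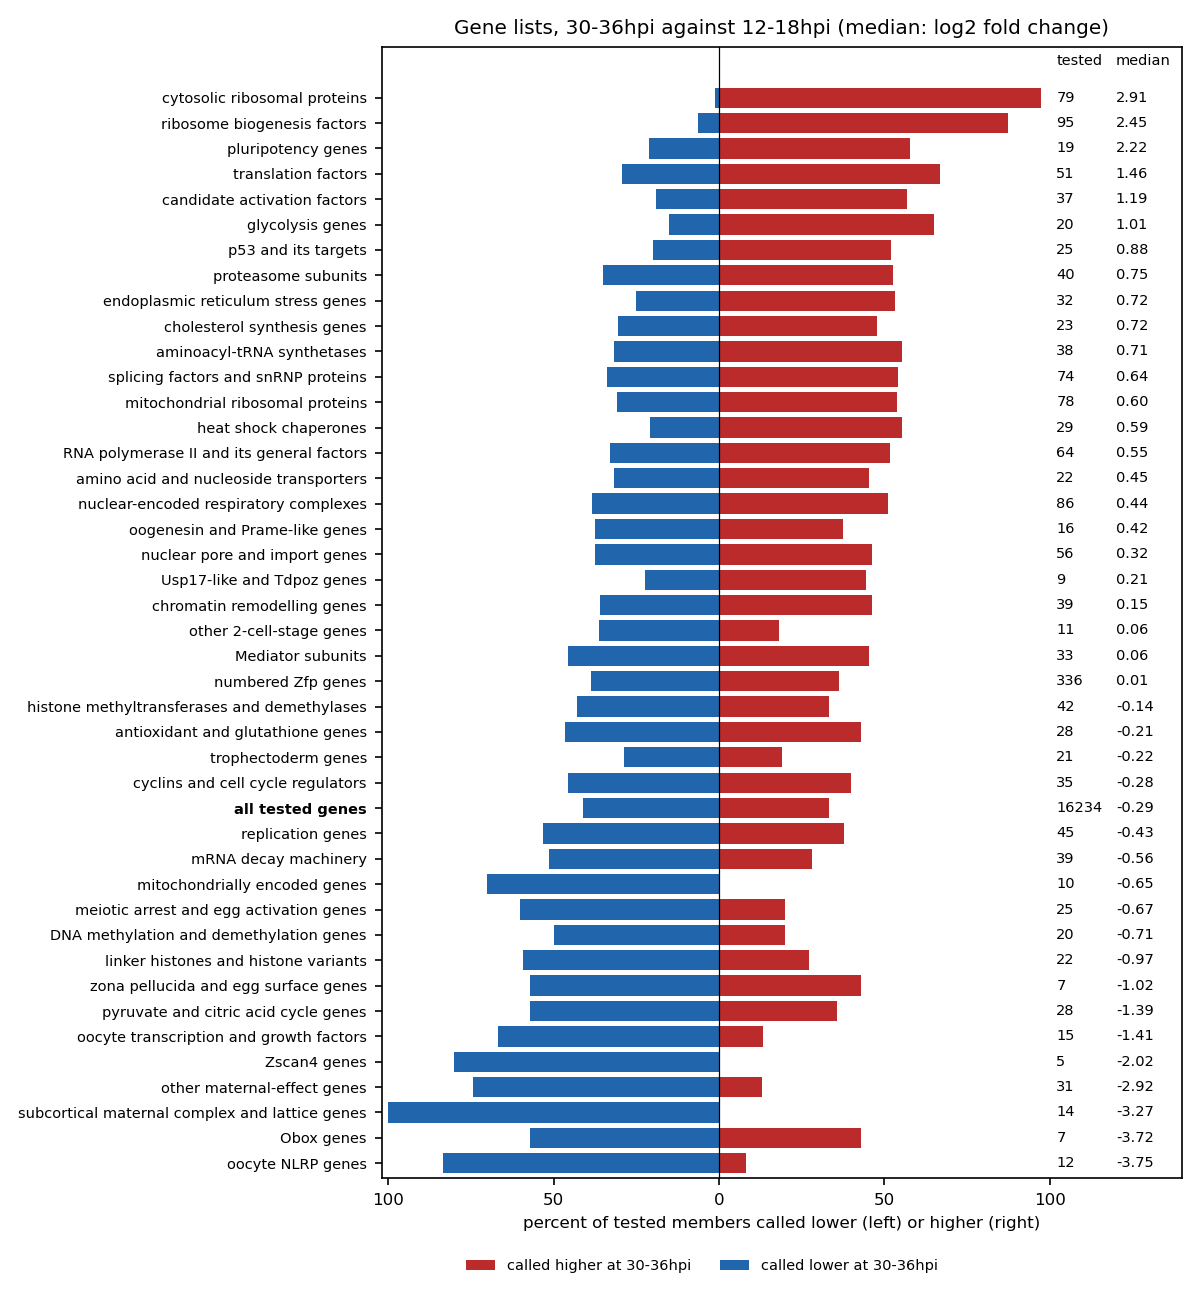
Percent of the tested members of each list other than cumulus and sperm markers called lower (blue, to the left of 0) or higher (red, to the right of 0) at 30-36hpi against 12-18hpi, with the number tested and the median log2 fold change at the right. Lists are ordered by that median, from 2.91 for cytosolic ribosomal proteins to -3.75 for oocyte NLRP genes, and all tested genes (33.3% higher, 41% lower) are in bold.

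Transcripts that the oocyte stores for the egg fell broadly, beside 33.3% higher and 41% lower among all tested genes. In the subcortical maternal complex and cytoplasmic lattices, protein assemblies of the oocyte cortex that early cleavage needs, of 14 tested members, 0 were called higher and 14 lower (median log2 fold change -3.27). Ooep had 12.4, 15.7 and 20.1 CPM at 30-36hpi, against 335, 289 and 402 CPM at 12-18hpi (log2 fold change -4.41 with an SE of 0.21, adjusted p = 2.57e-19). Tle6 had 47.8, 42.4 and 68.9 CPM at 30-36hpi, against 394, 318 and 276 CPM at 12-18hpi (log2 fold change -2.64 with an SE of 0.18, adjusted p = 2.32e-15). Uhrf1, which guides maintenance methylation, had 37.9, 30.1 and 38.9 CPM at 30-36hpi, against 381, 309 and 334 CPM at 12-18hpi (log2 fold change -3.26 with an SE of 0.19, adjusted p = 3.86e-17). No library of 30-36hpi reached the range of 12-18hpi. Nlrp5 averaged 88 ± 14 CPM at 30-36hpi, against 857 ± 132 CPM at 12-18hpi. Padi6, the lattice deiminase, averaged 48.9 ± 2.72 CPM at 30-36hpi, against 224 ± 35.1 CPM at 12-18hpi. The smallest fall of the list was Khdc3 (14.7 ± 1.07 CPM at 30-36hpi, against 27.8 ± 2.48 CPM at 12-18hpi, log2 fold change -0.92), which was not called with total count scaling (adjusted p = 0.142) or without 12-18hpi replicate 1 (0.0662) or 2 (0.133). The oocyte NLRP genes gave 1 of 12 higher and 10 lower (median log2 fold change -3.75). Nlrp4a had 32.4 ± 3.71 CPM at 30-36hpi, against 1091 ± 62.9 CPM at 12-18hpi. Nlrp9b averaged 23 ± 3.33 CPM at 30-36hpi, against 1288 ± 28.2 CPM at 12-18hpi. Nlrp4e averaged 17.4 ± 4.02 CPM at 30-36hpi, against 355 ± 20.7 CPM at 12-18hpi, Nlrp12 was higher (13.9 CPM at 30-36hpi, against 0.563 CPM at 12-18hpi, log2 fold change 4.57 with an SE of 0.52) and Nlrp4c was not called. These genes are close copies, and some stand in both lists. Oocyte transcription and growth factors gave 2 of 15 higher and 10 lower (median log2 fold change -1.41). Nobox, a homeobox factor of oocyte growth, had 6.64, 5.88 and 10.8 CPM at 30-36hpi, against 336, 339 and 364 CPM at 12-18hpi (log2 fold change -5.49 with an SE of 0.27, adjusted p = 2.39e-18). Lhx8 averaged 14.8 ± 0.816 CPM at 30-36hpi, against 223 ± 16.8 CPM at 12-18hpi. The secreted Oosp2 averaged 21.2 ± 2.94 CPM at 30-36hpi, against 359.6 ± 42 CPM at 12-18hpi. Other maternal-effect genes gave 4 of 31 higher and 23 lower (median log2 fold change -2.92). Zar1 averaged 14.8 ± 5.22 CPM at 30-36hpi, against 255 ± 8.96 CPM at 12-18hpi. Zfp57, which protects imprints, averaged 209 ± 64 CPM at 30-36hpi, against 2655 ± 154 CPM at 12-18hpi. Dppa3 (Stella) averaged 1522 ± 20.5 CPM at 30-36hpi, against 2591 ± 70.7 CPM at 12-18hpi. Ythdf2, the reader of methylated adenosine that speeds maternal decay, rose to 594, 599 and 745 CPM at 30-36hpi, against 94.3, 92.3 and 74 CPM at 12-18hpi (log2 fold change 2.89 with an SE of 0.14, adjusted p = 3.66e-19).

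Zona pellucida and egg surface genes split, as did all tested genes (33.3% higher and 41% lower). Izumo1r (Juno), the egg receptor for sperm, fell to 1.31, 3.56 and 2.72 CPM at 30-36hpi, against 95.1, 72.5 and 146 CPM at 12-18hpi (log2 fold change -5.34 with an SE of 0.34, adjusted p = 3.73e-16). Zp2 averaged 34 ± 8.23 CPM at 30-36hpi, against 145 ± 16.4 CPM at 12-18hpi. Cd9, a tetraspanin needed for fusion, rose to 219.7 ± 25.4 CPM at 30-36hpi, against 85.9 ± 7.77 CPM at 12-18hpi, and 3 of the 7 genes were called higher and 4 lower. Meiotic arrest and egg activation genes gave 5 of 25 higher and 15 lower (median log2 fold change -0.67). Ccnb2, a B-type cyclin, had 40.7, 39.7 and 40.8 CPM at 30-36hpi, against 449.5, 551 and 442 CPM at 12-18hpi (log2 fold change -3.57 with an SE of 0.16, adjusted p = 2.16e-20). Cdk1, its kinase partner, had 552, 606 and 694 CPM at 30-36hpi, against 43, 44.9 and 66.2 CPM at 12-18hpi (log2 fold change 3.59 with an SE of 0.16, adjusted p = 1.68e-20). The kinase was higher in all 3 libraries of 30-36hpi and the cyclin lower. Bub1b, a spindle checkpoint kinase, averaged 38.5 ± 4.13 CPM at 30-36hpi, against 147 ± 14.6 CPM at 12-18hpi.

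In 4 of 11 pairs of an oocyte-enriched and a broadly expressed paralogue the order of the levels changed between the windows, and in 7 it did not. The 11 pairs were listed after the results were known, and levels are given per kb of deposited gene length so that the genes of a pair can be compared. The oocyte-enriched gene was called lower in 10 of the 11, and its partner was called higher in 4 pairs, lower in 5 and not called in 2 (Tbp and Ybx1). The partners' counts are near the background of 33.3% higher and 41% lower among all tested genes. The order changed in favour of the broad form for Pabpc1, Aurkb and Tbp and in favour of Taf4b in the fourth pair. Kpna2, Eif4e, Ybx1 and Npm1 stood above the oocyte form in both windows. Pabpc1l had 0.595 ± 0.452 CPM per kb at 30-36hpi and 31.9 ± 3.55 at 12-18hpi. Pabpc1 had 95.4 ± 3.25 CPM per kb at 30-36hpi and 1.68 ± 0.673 at 12-18hpi. The broad form stood above the oocyte form at 30-36hpi and below it at 12-18hpi. Aurkc had 41.8 ± 6.9 CPM per kb at 30-36hpi and 412 ± 32.7 at 12-18hpi. Aurkb, the somatic kinase of the chromosomal passenger complex, had 53.6 ± 9.75 CPM per kb at 30-36hpi and 5.57 ± 0.989 at 12-18hpi. Tbpl2 had 0.185 ± 0.0946 CPM per kb at 30-36hpi and 25.4 ± 3.45 at 12-18hpi. Tbp, which was not called, had 17.1 ± 1.66 CPM per kb at 30-36hpi and 19.8 ± 1.57 at 12-18hpi. Kpna7 had 5.1 ± 2.31 CPM per kb at 30-36hpi and 138 ± 14 at 12-18hpi. Kpna2 had 747 ± 20.9 CPM per kb at 30-36hpi and 337 ± 21.6 at 12-18hpi. The cap-binding protein Eif4e1b had 1.95 ± 0.471 CPM per kb at 30-36hpi and 88.9 ± 9.53 at 12-18hpi. Eif4e, called lower as well, had 241 ± 20.3 CPM per kb at 30-36hpi and 335 ± 28.2 at 12-18hpi. Its call and those of Npm1 and Taf4 were lost with total count scaling, where Eif4e and Npm1 had log2 fold changes of 0.09 and 0.13, and without any 1 library of 12-18hpi. For H1foo, Wee2, Npm2 and Bcl2l10 the oocyte form fell strongly, and H1foo, Wee2 and Bcl2l10 stood above H1f0, Wee1 and Bcl2l1 in both windows. The linker histone H1foo had 82.6 ± 54.4 CPM per kb at 30-36hpi and 2094 ± 299.8 at 12-18hpi. H1f0 had 5.59 ± 0.668 CPM per kb at 30-36hpi and 14.6 ± 3.03 at 12-18hpi. The TFIID subunit went the other way, since Taf4b, known from the gonad, had 31.5 ± 2.27 CPM per kb at 30-36hpi and 6.17 ± 1.48 at 12-18hpi. Taf4 had 10.3 ± 1.95 CPM per kb at 30-36hpi and 17.6 ± 0.534 at 12-18hpi.

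**Figure D4:**
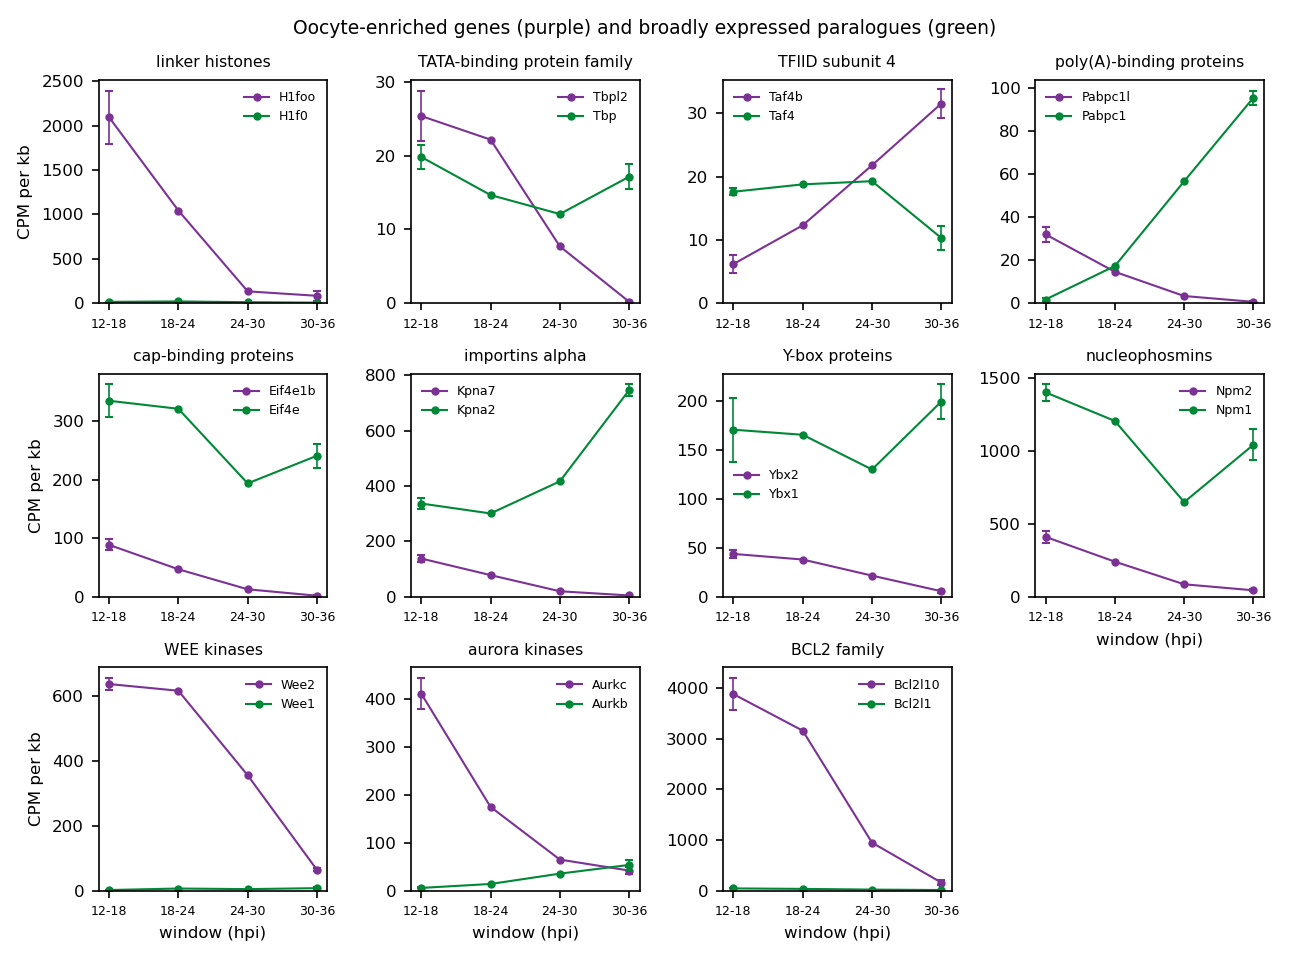
Mean CPM per kb in 4 windows (hpi, in time order) for 11 pairs of an oocyte-enriched gene (purple) and a broadly expressed paralogue (green), with SD bars at 12-18hpi and 30-36hpi (n = 3). Pabpc1, Aurkb and Tbp end above Pabpc1l, Aurkc and Tbpl2, Taf4b rises above Taf4, and the other 7 pairs keep their order at the outer windows.

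Genes of the 2-cell transcription wave did not share a direction over the whole interval, nor did all tested genes (33.3% higher and 41% lower). The Zscan4 genes, which mark the wave, were lower at 30-36hpi than at 12-18hpi: of 5 tested members, 0 were called higher and 4 lower (median log2 fold change -2.02). Zscan4d passed through 74 CPM at 12-18hpi, 402 at 18-24hpi, 129 at 24-30hpi and 21.5 at 30-36hpi, and Zscan4c through 30.2 CPM at 12-18hpi, 246 at 18-24hpi, 63.7 at 24-30hpi and 6.29 at 30-36hpi. Both peaked at 18-24hpi, inside the interval. The net calls depend on the setting: Zscan4d was not called with DESeq2 (adjusted p = 0.0528) or without 12-18hpi replicate 2 (0.0537), Zscan4c with DESeq2 (0.0758) or without 12-18hpi replicate 2 or 3 (0.0685 and 0.0712), and Zscan4b with total count scaling (0.119) or without 5 of the 6 libraries (0.0503 to 0.316). Usp17-like and Tdpoz genes gave 4 of 9 higher and 2 lower (median log2 fold change 0.21). Tdpoz1 had 130.5, 109.6 and 244 CPM at 30-36hpi, against 0.963, 0.835 and 2.94 CPM at 12-18hpi (log2 fold change 6.63 with an SE of 0.55, adjusted p = 8.53e-11). Usp17lb had 174, 202 and 419.9 CPM at 30-36hpi, against 9.15, 19.3 and 13.5 CPM at 12-18hpi (log2 fold change 4.24 with an SE of 0.78, adjusted p = 4.85e-05). Other genes of the stage gave 2 of 11 higher and 4 lower (median log2 fold change 0.06), where total count scaling made it 5 higher and 4 lower. Duxf3 (Dux), an activator of this wave, fell to 0.12 ± 0.0301 CPM at 30-36hpi, against 12.2 ± 2.74 CPM at 12-18hpi. AF067063 rose to 148 ± 40.5 CPM at 30-36hpi, against 3.44 ± 0.262 CPM at 12-18hpi. Ubtfl1 rose to 154 ± 22.7 CPM at 30-36hpi, against 19.5 ± 5.93 CPM at 12-18hpi. Tcstv1 fell to 17.6 ± 3.04 CPM at 30-36hpi, against 246 ± 37.8 CPM at 12-18hpi. Zfp352 ran through 96.7 CPM at 12-18hpi, 844 at 18-24hpi, 469 at 24-30hpi and 136 at 30-36hpi and was not called. These genes have near-identical copies whose reads may be shared.

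Of 7 tested Obox genes, homeobox genes of oocyte and cleavage embryo, 3 were called higher and 4 lower. Obox6 (chromosome 7, 15833250 to 15839679) had 703, 681 and 677 CPM at 30-36hpi, against 2.29, 10.5 and 7.31 CPM at 12-18hpi (log2 fold change 6.67 with an SE of 0.38, adjusted p = 1.7e-13). Obox8 had 248, 318 and 365 CPM at 30-36hpi, against 0.482, 0.477 and 0.545 CPM at 12-18hpi (log2 fold change 9.23 with an SE of 0.78, adjusted p = 4.4e-10). Obox3 averaged 29 ± 9.24 CPM at 30-36hpi, against 1.31 ± 0.473 CPM at 12-18hpi. The others fell. Obox7 (chromosome 7, 14659708 to 14665996) had 10.7, 9.66 and 11.2 CPM at 30-36hpi, against 292, 415 and 341 CPM at 12-18hpi (log2 fold change -5.06 with an SE of 0.29, adjusted p = 2.87e-15). Obox1, Obox2 and Obox5 averaged 32.3, 24.6 and 98.4 CPM at 30-36hpi, against 924, 579 and 1294 CPM at 12-18hpi (log2 fold changes -4.84, -4.56 and -3.72, with SEs of 0.47 to 0.55). None of the 7 overlapped between windows, as was so for 74.7% of all tested genes. The oogenesin and Prame-like genes had 6 of 16 called higher and 6 lower, near the 33.3% and 41% of all tested genes. Pramel7 had 181, 158 and 189 CPM at 30-36hpi, against 0.361, 1.67 and 1.42 CPM at 12-18hpi (log2 fold change 7.23 with an SE of 0.31, adjusted p = 2.56e-20). Pramel4, Pramel6 and Pramel5 rose, averaging 118, 125 and 75.8 CPM at 30-36hpi, against 1.22, 1.33 and 1.54 CPM at 12-18hpi (log2 fold changes 6.56, 6.52 and 5.6, with SEs of 0.28 to 0.48). Pramef20 had 1.91, 2.24 and 1.99 CPM at 30-36hpi, against 122, 147 and 149 CPM at 12-18hpi (log2 fold change -6.07 with an SE of 0.30, adjusted p = 2.62e-19). Oog4 and Oog2 fell, averaging 23.3 and 60.6 CPM at 30-36hpi, against 1177 and 714 CPM at 12-18hpi (log2 fold changes -5.67 and -3.56, with SEs of 0.38 to 0.50). Oog3, the most abundant, averaged 1766 ± 19.4 CPM at 30-36hpi, against 5123 ± 569 CPM at 12-18hpi and was not called (adjusted p = 0.087), although its libraries did not overlap.

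Among candidate activation factors, transcription regulators linked to genome activation, of 37 tested members, 21 were called higher and 7 lower (median log2 fold change 1.19). Of all tested genes 33.3% were called higher and 41% lower. Dppa4 had 491, 606 and 573 CPM at 30-36hpi, against 12.5, 12.7 and 12.8 CPM at 12-18hpi (log2 fold change 5.46 with an SE of 0.21, adjusted p = 7.58e-22). Its partner Dppa2 had 938, 1017 and 994 CPM at 30-36hpi, against 271, 301 and 304 CPM at 12-18hpi (log2 fold change 1.75 with an SE of 0.12, adjusted p = 4.16e-15). Gabpa, an ETS-family factor, averaged 616 ± 73.1 CPM at 30-36hpi, against 9.77 ± 3.87 CPM at 12-18hpi (log2 fold change 5.97), and Etv5, another ETS factor, 46.1 ± 7.4 CPM at 30-36hpi, against 3.23 ± 0.855 CPM at 12-18hpi. The ETS factors Elk1 and Elf1 were not called. Nfyb, a CCAAT-binding subunit, rose to 138 ± 14.9 CPM at 30-36hpi, against 20.2 ± 6.83 CPM at 12-18hpi. Nfya fell to 33.5 ± 9.84 CPM at 30-36hpi, against 67.8 ± 5.7 CPM at 12-18hpi, and Nfyc was not called. Nr5a2, an orphan nuclear receptor, rose to 101 ± 5.83 CPM at 30-36hpi, against 26.6 ± 3.31 CPM at 12-18hpi. The zinc finger factor Yy1 rose to 83.8 ± 5.69 CPM at 30-36hpi, against 8.52 ± 0.681 CPM at 12-18hpi. Tead4, a partner of YAP in the later trophectoderm, rose to 35.1, 56.6 and 60.3 CPM at 30-36hpi, against 0.241, 0.597 and 0.109 CPM at 12-18hpi (log2 fold change 7.30 with an SE of 0.38, adjusted p = 4.08e-18). Max, the dimer partner of MYC, fell to 11.4 ± 1.76 CPM at 30-36hpi, against 82.2 ± 11.1 CPM at 12-18hpi. Myc rose to 41.8 ± 13.1 CPM at 30-36hpi, against 3.68 ± 0.972 CPM at 12-18hpi. Klf17, a Kruppel-like factor, had 409, 397 and 516 CPM at 30-36hpi, against 614, 552 and 696 CPM at 12-18hpi and was not called (log2 fold change -0.49, SE 0.26, adjusted p = 0.087), except in a fit with no low-count filter (0.0261). Its libraries did not overlap between the windows, the 3 of 30-36hpi being lower, but 74.7% of all tested genes lacked overlap too.

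Lineage genes were mostly at low levels. Pluripotency genes gave 11 of 19 higher and 4 lower (median log2 fold change 2.22), beside 33.3% higher and 41% lower among all tested genes. Beside Fgf4, Dppa5a, Klf5, Zfp42 and Utf1 rose, averaging 424, 23.9, 29.8 and 20.6 CPM at 30-36hpi, against 91, 1.1, 1.92 and 0.371 CPM at 12-18hpi (log2 fold changes 2.22, 4.40, 3.94 and 5.70, with SEs of 0.15 to 0.59). Pou5f1 (Oct4) fell to 2.52, 4.25 and 4.29 CPM at 30-36hpi, against 19.3, 20.2 and 27.8 CPM at 12-18hpi (log2 fold change -2.60 with an SE of 0.24, adjusted p = 1.02e-11). Its libraries of 30-36hpi were all under 5 CPM and those of 12-18hpi above 19 CPM. Nanog was called higher, but not without 30-36hpi replicate 1 (adjusted p = 0.198), at 1.28 ± 1.35 CPM at 30-36hpi, against 0.156 ± 0.183 CPM at 12-18hpi, with overlapping libraries. Trophectoderm genes gave 4 of 21 higher (19%) and 6 lower (28.6%), both below those shares, with a median log2 fold change of -0.22. With total count scaling 6 were higher and 4 lower. Gata3 fell to 3.42, 4.72 and 3.24 CPM at 30-36hpi, against 61, 64.5 and 58.5 CPM at 12-18hpi (log2 fold change -3.99 with an SE of 0.22, adjusted p = 9.69e-18). Dab2, an endocytic adaptor, fell to 25.3 ± 3.42 CPM at 30-36hpi, against 421 ± 29.5 CPM at 12-18hpi. Cldn6, a claudin, rose to 21.7 ± 3.92 CPM at 30-36hpi, against 0.192 ± 0.18 CPM at 12-18hpi. Cdx2 was at 0.0348 ± 0.0603 CPM at 30-36hpi, against 0.0803 ± 0.139 CPM at 12-18hpi.

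Cell cycle genes moved in both directions, as did all tested genes (33.3% higher and 41% lower). Cyclins and cell cycle regulators gave 14 of 35 higher and 16 lower (median log2 fold change -0.28), with 17 higher and 12 lower under total count scaling. Ccne1, the E-type cyclin of S phase entry, had 372, 394 and 434 CPM at 30-36hpi, against 12.9, 11.4 and 12 CPM at 12-18hpi (log2 fold change 5.04 with an SE of 0.19, adjusted p = 4.07e-22). Ccne2 fell to 145 ± 8.04 CPM at 30-36hpi, against 373 ± 62.1 CPM at 12-18hpi. Cdkn1a (p21), a kinase inhibitor, rose to 86.9 ± 8.46 CPM at 30-36hpi, against 8.26 ± 1.06 CPM at 12-18hpi. Cdc25c, a phosphatase that switches on CDK1, rose to 92.9 ± 5.68 CPM at 30-36hpi, against 3.81 ± 1.68 CPM at 12-18hpi. Wee2, the oocyte kinase opposing it, fell to 184 ± 12.9 CPM at 30-36hpi, against 1835 ± 53.3 CPM at 12-18hpi. Replication genes gave 17 of 45 higher and 24 lower (median log2 fold change -0.43), with 21 higher and 17 lower under total count scaling. In replication protein A, the trimer that coats single-stranded DNA, Rpa2 had 313, 318 and 318 CPM at 30-36hpi, against 12.2, 16.3 and 16.2 CPM at 12-18hpi (log2 fold change 4.40 with an SE of 0.20, adjusted p = 2.31e-20). Rpa3 had 23.6, 15.8 and 21.2 CPM at 30-36hpi, against 368, 453 and 369 CPM at 12-18hpi (log2 fold change -4.30 with an SE of 0.16, adjusted p = 2.24e-22). Rpa1 averaged 14.7 ± 3.5 CPM at 30-36hpi, against 122 ± 12.4 CPM at 12-18hpi. Within this trimer the large and the small subunit fell and the middle one rose. Orc5 and Rfc3, of the origin and clamp loader complexes, fell, averaging 87.8 and 8.93 CPM at 30-36hpi, against 779 and 143 CPM at 12-18hpi (log2 fold changes -3.15 and -3.99, with SEs of 0.14 to 0.20). In the MCM helicase, Mcm6 averaged 407 ± 23.6 CPM at 30-36hpi, against 153 ± 17.1 CPM at 12-18hpi. Mcm3 rose to 34.1 ± 10.4 CPM at 30-36hpi, against 14.1 ± 1.29 CPM at 12-18hpi. Mcm2, Mcm4 and Mcm5 fell, averaging 74, 55.5 and 19.2 CPM at 30-36hpi, against 315, 255 and 44 CPM at 12-18hpi (log2 fold changes -2.09, -2.20 and -1.20, with SEs of 0.14 to 0.19), and Mcm7 was not called.

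Chromatin families held both rising and falling members, as did all tested genes (33.3% higher and 41% lower). Linker histones and histone variants gave 6 of 22 higher and 13 lower (median log2 fold change -0.97). The variant H2afz had 887, 864 and 929.6 CPM at 30-36hpi, against 102, 158 and 117 CPM at 12-18hpi (log2 fold change 2.83 with an SE of 0.15, adjusted p = 1.77e-18). H2afv averaged 177 ± 10.5 CPM at 30-36hpi, against 34.2 ± 8.42 CPM at 12-18hpi. Slbp, the histone mRNA binding protein, fell to 497, 478 and 559 CPM at 30-36hpi, against 2883, 2933 and 3393 CPM at 12-18hpi (log2 fold change -2.59 with an SE of 0.12, adjusted p = 8.98e-20). The chaperone Asf1a fell to 93.8 ± 15.4 CPM at 30-36hpi, against 951 ± 140.2 CPM at 12-18hpi. Hira, another histone chaperone, rose to 38.9 ± 5.62 CPM at 30-36hpi, against 1.32 ± 0.201 CPM at 12-18hpi. DNA methylation and demethylation genes gave 4 of 20 higher and 10 lower (median log2 fold change -0.71). Tet1 had 84.5, 118 and 103 CPM at 30-36hpi, against 8.79, 8.95 and 9.16 CPM at 12-18hpi (log2 fold change 3.5 with an SE of 0.20, adjusted p = 1.11e-17). Tet3, the oxidase that the egg brings, had 66.5, 78.9 and 88.9 CPM at 30-36hpi, against 364, 327 and 367 CPM at 12-18hpi (log2 fold change -2.17 with an SE of 0.23, adjusted p = 1.75e-09). Dnmt1 fell to 48.3 ± 7.84 CPM at 30-36hpi, against 205 ± 22.1 CPM at 12-18hpi. Histone methyltransferases and demethylases gave 14 of 42 higher (33.3%) and 18 lower (42.9%), near the shares of all tested genes. Their median log2 fold change was -0.14, and the balance turned to 22 higher and 12 lower with total count scaling. The demethylases Kdm5b, Kdm5a and Kdm4c rose, averaging 672, 173 and 77.9 CPM at 30-36hpi, against 15.2, 6.01 and 0.692 CPM at 12-18hpi (log2 fold changes 5.46, 4.84 and 6.78, with SEs of 0.22 to 0.39). Kdm1b, which the oocyte needs for imprints, fell to 64.1 ± 14.9 CPM at 30-36hpi, against 505 ± 41.7 CPM at 12-18hpi. The Polycomb genes Eed and Ezh2 fell, averaging 91.7 and 136 CPM at 30-36hpi, against 541 and 516 CPM at 12-18hpi (log2 fold changes -2.56 and -1.93, with SEs of 0.12 to 0.13). Chromatin remodelling genes gave 18 of 39 higher and 14 lower (median log2 fold change 0.15). The deacetylase Hdac1 rose to 298 ± 25.4 CPM at 30-36hpi, against 6.38 ± 2.33 CPM at 12-18hpi. The remodeller Chd1 rose to 483 ± 58.4 CPM at 30-36hpi, against 117 ± 17.1 CPM at 12-18hpi. The histone-binding Rbbp7 fell to 552 ± 90 CPM at 30-36hpi, against 4074 ± 314 CPM at 12-18hpi.

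Glycolysis genes were mostly higher and pyruvate and citric acid cycle genes mostly lower, beside 33.3% higher and 41% lower among all tested genes. Glycolysis genes gave 13 of 20 higher and 3 lower (median log2 fold change 1.01). Slc2a3, a glucose transporter, had 33, 28.4 and 25.2 CPM at 30-36hpi, against 0.241, 0.477 and 0.873 CPM at 12-18hpi (log2 fold change 5.71 with an SE of 0.35, adjusted p = 1.4e-16). Pgam1 averaged 49.7 ± 6.05 CPM at 30-36hpi, against 8 ± 1.91 CPM at 12-18hpi. Eno1 averaged 151 ± 22.6 CPM at 30-36hpi, against 25.9 ± 4.55 CPM at 12-18hpi. Gapdh averaged 362 ± 90.2 CPM at 30-36hpi, against 91.2 ± 14.6 CPM at 12-18hpi. Ldhb, the lactate dehydrogenase subunit abundant in eggs, fell to 326, 340.5 and 459 CPM at 30-36hpi, against 3148, 3156 and 2857 CPM at 12-18hpi (log2 fold change -3.03 with an SE of 0.35, adjusted p = 9.84e-08). Ldha rose to 80.4, 74.5 and 90.5 CPM at 30-36hpi, against 11.6, 3.7 and 10.1 CPM at 12-18hpi (log2 fold change 3.27 with an SE of 0.35, adjusted p = 5.55e-10). Neither subunit overlapped between windows, as was so for 74.7% of all tested genes. Pyruvate and citric acid cycle genes gave 10 of 28 higher and 16 lower (median log2 fold change -1.39). Sdha, Idh1, Suclg2 and Pdhx fell, averaging 17.1, 4.93, 25.4 and 63.4 CPM at 30-36hpi, against 199, 117, 217 and 396 CPM at 12-18hpi (log2 fold changes -3.53, -4.60, -3.10 and -2.64, with SEs of 0.13 to 0.25). Mdh2 had 349.7, 411 and 372 CPM at 30-36hpi, against 29.3, 28.8 and 28.4 CPM at 12-18hpi (log2 fold change 3.71 with an SE of 0.19, adjusted p = 4.79e-19). Its cytosolic form Mdh1 averaged 41.6 ± 11.7 CPM at 30-36hpi, against 260.2 ± 19.8 CPM at 12-18hpi. In isocitrate dehydrogenase, Idh3g, Idh3b and Idh2 rose, averaging 80.6, 37.2 and 17.6 CPM at 30-36hpi, against 3.76, 1.44 and 0.587 CPM at 12-18hpi (log2 fold changes 4.41, 4.66 and 4.89, with SEs of 0.26 to 0.43). Idh3a averaged 82.3 ± 0.956 CPM at 30-36hpi, against 216 ± 30.6 CPM at 12-18hpi. Nuclear-encoded respiratory complexes gave 44 of 86 higher and 33 lower (median log2 fold change 0.44). Cox4i1 averaged 264 ± 20.1 CPM at 30-36hpi, against 28.7 ± 0.772 CPM at 12-18hpi. Sdhc stood at 9.73 ± 1.45 CPM at 30-36hpi, against 134 ± 12.2 CPM at 12-18hpi. Ndufab1 stood at 80.9 ± 8.3 CPM at 30-36hpi, against 358 ± 12.1 CPM at 12-18hpi. Of 10 tested mitochondrially encoded genes, 0 were called higher and 7 lower (median log2 fold change -0.65), but 2 higher and 2 lower with total count scaling. mt-Nd1 had 2241, 2043 and 1389 CPM at 30-36hpi, against 3623, 4110 and 3453 CPM at 12-18hpi, lowest in replicate 3 of 30-36hpi, the library with the smallest mitochondrial share (0.909%).

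Heat shock, endoplasmic reticulum stress and p53 target genes leaned upward, beside 33.3% higher and 41% lower among all tested genes. Antioxidant genes did not. Heat shock chaperones gave 16 of 29 higher and 6 lower (median log2 fold change 0.59). Beside Hspa8, Hspa4 averaged 154 ± 11.2 CPM at 30-36hpi, against 23.5 ± 4.08 CPM at 12-18hpi. The chaperonin subunits Tcp1 and Cct4 averaged 818 and 474 CPM at 30-36hpi, against 149 and 49.9 CPM at 12-18hpi (log2 fold changes 2.46 and 3.25, with SEs of 0.13 to 0.19). Dnajb4 fell to 35.2 ± 0.282 CPM at 30-36hpi, against 1591 ± 168 CPM at 12-18hpi. Endoplasmic reticulum stress genes gave 17 of 32 higher and 8 lower (median log2 fold change 0.72). Hspa5 (BiP) had 1219, 1227 and 1274 CPM at 30-36hpi, against 209, 243 and 214 CPM at 12-18hpi (log2 fold change 2.48 with an SE of 0.13, adjusted p = 3.48e-18). Dnajb11 and Ppp1r15b averaged 158 and 86.2 CPM at 30-36hpi, against 20.4 and 4.11 CPM at 12-18hpi (log2 fold changes 2.96 and 4.39, with SEs of 0.15 to 0.27). The gene Trp53 itself was called lower, at 103 ± 7.55 CPM at 30-36hpi, against 151 ± 6.13 CPM at 12-18hpi, a call lost with total count scaling (log2 fold change 0.01, against -0.55) and without any 1 library of 12-18hpi (adjusted p = 0.254 to 0.527). p53 with its targets gave 13 of 25 higher and 5 lower (median log2 fold change 0.88), with Sesn2, Gadd45b and Sesn1 at 64.8, 39.9 and 49.2 CPM at 30-36hpi, against 1.82, 3.5 and 4.16 CPM at 12-18hpi (log2 fold changes 5.14, 3.5 and 3.56, with SEs of 0.35 to 0.39). Antioxidant and glutathione genes gave 12 of 28 higher and 13 lower (median log2 fold change -0.21), and 13 and 10 with total count scaling. The peroxidase Gpx4 rose to 101 ± 8.4 CPM at 30-36hpi, against 6.11 ± 0.638 CPM at 12-18hpi. Prdx4 rose to 189.5 ± 11.8 CPM at 30-36hpi, against 6.39 ± 1.53 CPM at 12-18hpi. Prdx1 fell to 440 ± 33.4 CPM at 30-36hpi, against 2299 ± 55.5 CPM at 12-18hpi. Cholesterol synthesis genes gave 11 of 23 higher and 7 lower (median log2 fold change 0.72), with a median of -0.05 without 30-36hpi replicate 3. Nsdhl fell to 1.01, 1.93 and 2.4 CPM at 30-36hpi, against 124, 126 and 107 CPM at 12-18hpi (log2 fold change -6.05 with an SE of 0.31, adjusted p = 7.74e-19). Hmgcs1 and Sc5d fell, averaging 239 and 27.5 CPM at 30-36hpi, against 837 and 159 CPM at 12-18hpi (log2 fold changes -1.81 and -2.53, with SEs of 0.14 to 0.17), and Mvk had 2 reads at 12-18hpi and 15.7 CPM at 30-36hpi. Amino acid and nucleoside transporters gave 10 of 22 higher and 7 lower (median log2 fold change 0.45), with Slc7a11 and Slc7a2 falling to 18.8 and 17.7 CPM at 30-36hpi, against 209 and 154 CPM at 12-18hpi (log2 fold changes -3.47 and -3.12, with SEs of 0.20 to 0.27) and Slc29a2 rising to 31.9 ± 6.07 CPM at 30-36hpi, against 0.272 ± 0.075 CPM at 12-18hpi.

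The machinery of mRNA decay, which clears maternal transcripts, moved in both directions, as did all tested genes (33.3% higher and 41% lower). The list gave 11 of 39 higher and 20 lower (median log2 fold change -0.56), with 18 higher and 18 lower under total count scaling. The deadenylase subunits Cnot3, Cnot4, Cnot6l and Cnot11 fell, averaging 32.4, 49.9, 86.6 and 15.9 CPM at 30-36hpi, against 244, 384, 530.4 and 131 CPM at 12-18hpi (log2 fold changes -2.91, -2.95, -2.61 and -3.04, with SEs of 0.15 to 0.22). Cnot1, the scaffold, and Cnot10 rose, averaging 396 and 49.7 CPM at 30-36hpi, against 149 and 7.73 CPM at 12-18hpi (log2 fold changes 1.41 and 2.68, with SEs of 0.13 to 0.21). Pan2 had 17.5, 19.9 and 21.3 CPM at 30-36hpi, against 186, 178 and 183 CPM at 12-18hpi (log2 fold change -3.22 with an SE of 0.15, adjusted p = 9.8e-20). Btg4, the adaptor that brings the deadenylase to maternal mRNA, had 309.9, 287 and 289 CPM at 30-36hpi, against 2935, 3060 and 3236 CPM at 12-18hpi (log2 fold change -3.38 with an SE of 0.72, adjusted p = 0.000248). Btg4 passed through 3077 CPM at 12-18hpi, 3481 at 18-24hpi, 1577 at 24-30hpi and 295 at 30-36hpi. The related Btg1 and Tob1 rose, averaging 87.3 and 44.8 CPM at 30-36hpi, against 7.61 and 5.64 CPM at 12-18hpi (log2 fold changes 3.52 and 2.99, with SEs of 0.23 to 0.30). Zcchc11 (Tut4), a uridylating enzyme, averaged 24.8 ± 1.52 CPM at 30-36hpi, against 1.72 ± 0.683 CPM at 12-18hpi. Zcchc6 (Tut7) averaged 34.9 ± 2.56 CPM at 30-36hpi, against 51.6 ± 6.84 CPM at 12-18hpi, a call lost with total count scaling and without any 1 library of 12-18hpi (adjusted p = 0.254 to 0.723). The 336 tested numbered Zfp genes, mostly zinc finger repressors, were near even, with 122 higher (36.3%) and 130 lower (38.7%). With total count scaling the counts were 154 and 95. Zfp981 averaged 251 ± 49.9 CPM at 30-36hpi, against 3.85 ± 1.11 CPM at 12-18hpi. Zfp108, Zfp58 and Zfp708 fell, averaging 15, 5.02 and 15 CPM at 30-36hpi, against 229, 171 and 275 CPM at 12-18hpi (log2 fold changes -3.94, -5.10 and -4.19, with SEs of 0.18 to 0.24).

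The net change was set against the middle step, 24-30hpi against 18-24hpi, which shares no library with it. That step called 7365 genes (45.4%), 3412 higher (21%) and 3953 lower (24.4%). 3099 genes were called higher in both, 57.4% of the net rises and 90.8% of the rises of the middle step, and 3634 lower in both, 54.6% of the net falls and 91.9% of those of the middle step. The opposite call was rare: 52 net rises (0.962%) fell in the middle step, and 34 net falls (0.51%) rose there. The median middle-step log2 change was 1.05 among net rises and -0.84 among net falls, against -0.12 over all genes.

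Some genes with no net call differed between the middle of the interval and its ends. The mean of the inner windows (18-24hpi and 24-30hpi) against the mean of the outer windows (12-18hpi and 30-36hpi) called 7256 genes (44.7%), 4789 higher (29.5%) and 2467 lower (15.2%) inside. Of the 4170 genes not called in the net change, 699 were higher inside (16.8%) and 523 lower (12.5%). Hes1, a repressor of the Notch pathway, passed through 4.05 CPM at 12-18hpi, 70.9 at 18-24hpi, 66.2 at 24-30hpi and 5.01 at 30-36hpi (difference 3.92 on the log2 scale, SE 0.22, adjusted p = 9.04e-16). Its net change was not called (log2 fold change 0.30 with an SE of 0.34, adjusted p = 0.42). Zscan4f ran through 11.2 CPM at 12-18hpi, 151 at 18-24hpi, 53.7 at 24-30hpi and 6.42 at 30-36hpi (difference 3.40 on the log2 scale, SE 0.41, adjusted p = 3.33e-07). Usp17lc, a deubiquitinase gene, ran through 24.5 CPM at 12-18hpi, 118 at 18-24hpi, 111 at 24-30hpi and 13.4 at 30-36hpi (difference 2.66 on the log2 scale, SE 0.53, adjusted p = 0.000304). Tmem92, a membrane protein gene, had 4.68 CPM at 12-18hpi, 39.5 at 18-24hpi, 31.4 at 24-30hpi and 5.58 at 30-36hpi. Olfr376, an olfactory receptor gene, had 1.19 CPM at 12-18hpi, 28.8 at 18-24hpi, 8.72 at 24-30hpi and 2.79 at 30-36hpi. In none of these 5 did an outer library reach the lowest inner one, but they were chosen for this difference. The share of all tested genes so separated was not counted. The 6 genes most below their outer windows averaged over 35 CPM at both ends. Nelfcd, a subunit of the factor that pauses RNA polymerase II, ran through 63.2 CPM at 12-18hpi, 7.43 at 18-24hpi, 7.73 at 24-30hpi and 53.6 at 30-36hpi (difference -2.94 on the log2 scale, SE 0.17, adjusted p = 9.04e-16). Elac2, which trims tRNA ends, had 62.2 CPM at 12-18hpi, 18.9 at 18-24hpi, 16.1 at 24-30hpi and 58.2 at 30-36hpi. Brf2, an initiation factor of RNA polymerase III, had 85.4 CPM at 12-18hpi, 25.1 at 18-24hpi, 31.7 at 24-30hpi and 108 at 30-36hpi. The nucleolar gene Rrp1b had 77.2 CPM at 12-18hpi, 19.9 at 18-24hpi, 27.8 at 24-30hpi and 90.4 at 30-36hpi. Ppan, a nucleolar factor as well, had 52.1 CPM at 12-18hpi, 12.2 at 18-24hpi, 27.5 at 24-30hpi and 71.5 at 30-36hpi. Ttc4, a co-chaperone, had 38.6 CPM at 12-18hpi, 7.93 at 18-24hpi, 11.8 at 24-30hpi and 37.3 at 30-36hpi. In none of these 6, chosen for the difference as well, did an inner library reach the lowest outer one.

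**Figure D5:**
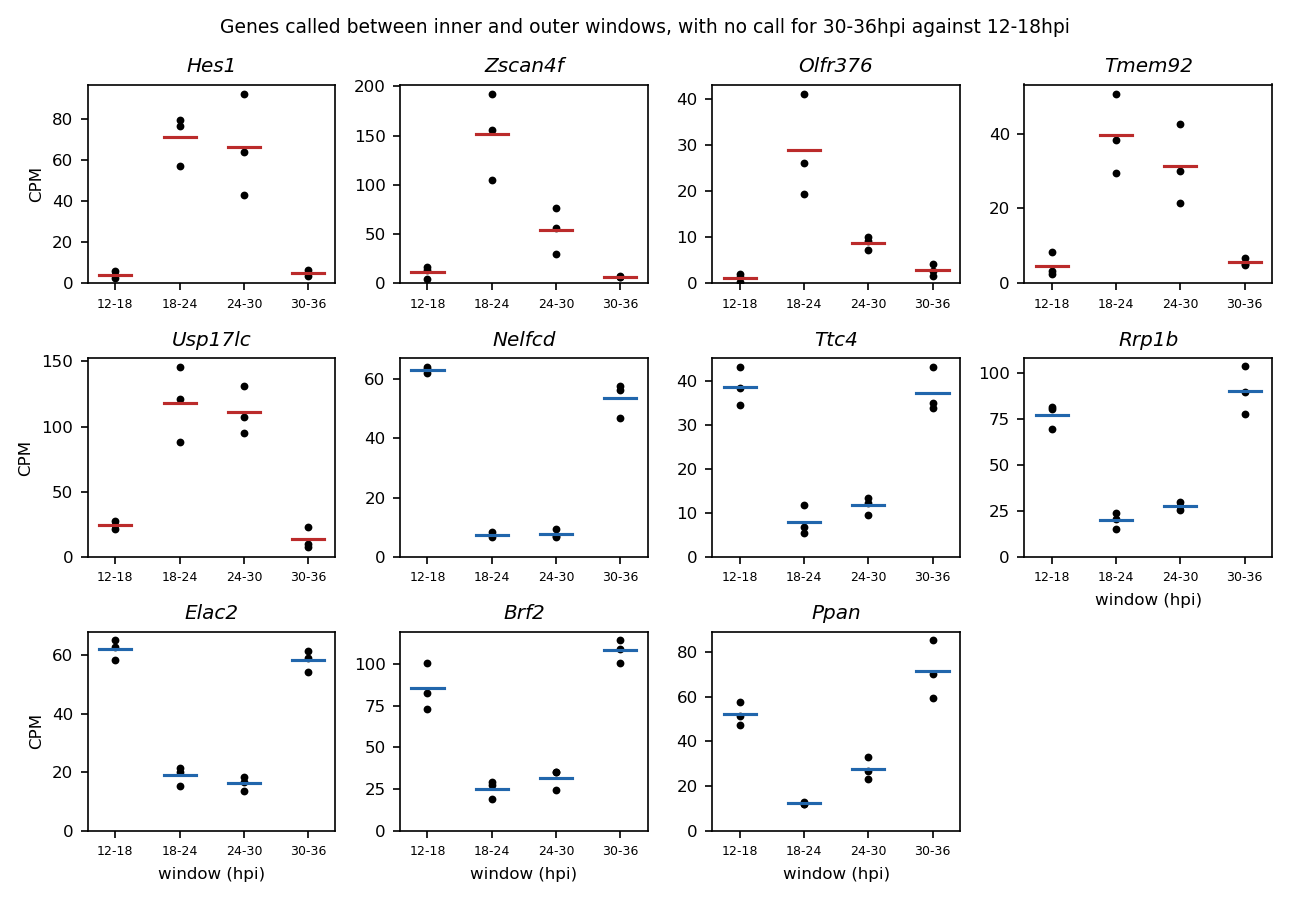
CPM in each library (points, n = 3 per window) and window means (lines) over 4 windows in time order for 5 of the genes most above (red) and the 6 most below (blue) their outer windows in the inner ones, among genes with no net call. Hes1 averages 70.9 and 66.2 CPM inside and 4.05 and 5.01 CPM outside, and Nelfcd 7.43 and 7.73 CPM inside and 63.2 and 53.6 CPM outside.

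Levels in MII oocytes, from 3 libraries outside the comparison, were set beside the direction of change. Of 5155 genes with a mean under 1 CPM in MII oocytes, 45.6% were called higher and 14.5% lower at 30-36hpi (median log2 fold change 1.71). Of 4135 genes at 1 to 10 CPM the shares were 34.7% and 40.1%, of 4422 at 10 to 100 CPM 28.2% and 54.4%, and of 2522 over 100 CPM 14.6% and 73.3% (median -1.26). These counts share the scaling of the windows. The count filter covered all 10 groups, so genes under 1 CPM in MII oocytes as a rule passed it through a higher level elsewhere. How far this sets the shares was not tested. In 5 groups of equal number by deposited gene length, from the shortest to the longest, 34.7, 35.1, 34.1, 33.1 and 29.4% were called higher and 41.7, 40, 40.5, 40.2 and 42.7% lower.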

How the data were processed

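Embryos were alkylated and made into libraries with a modified Smart-seq2 method primed by oligo-dT, per the labels' protocols. The authors deposited 1 table of raw read counts per gene, per the file headers, with gene lengths. Its last record is damaged and was left out, and 24551 genes remained. The column of 90-96hpi replicate 3 holds 1 fractional value in the deposited file and was treated as an expected count column and rounded. Trim Galore 0.6.10, STAR 2.7.10a, SAMtools 1.12 and mm10 are named in the submitters' processing notes. The counter, the use of strand and the treatment of converted reads are not given in the sources used here, so antisense and overlapping genes are uncertain.

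The 30 libraries of MII oocytes and 9 windows were fitted together with edgeR 4.0.16 in R 4.3.3 after filterByExpr (count 10, total 15) and TMM scaling. The quasi-likelihood F-test was robust, p-values were adjusted by Benjamini-Hochberg over 16234 genes, and the SE is the absolute log2 fold change divided by the square root of F. CPM uses TMM-scaled totals. The code was tested on simulated data in which few genes changed, evenly up and down, so that test does not bear on the choice of scaling. The labels do not say that replicates are separate collections, so p-values measure the spread between libraries. That spread was estimated over all 30 libraries and not from the compared ones alone. A gene such as Oog3 can thus lack a call without overlap between the windows. Intervals and floors cover counting error only.

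Genes were named by a rule: among genes of at least 20 CPM in the higher window, called and without overlap, the 14 highest and 14 lowest fold changes and the 6 largest gains and losses in CPM, then up to 4 members per list by adjusted p, 6 genes in each direction of the inner windows, 5 genes not detected at each end, and Klf17, which the series targets elsewhere. 1 gene that the rule names is not reported here. Further list members were named after their values were seen, for their role or for opposing their list. Members, lists and pairs were chosen with earlier results of these data known. Alternatives were DESeq2 1.42.0, a replicate block, DESeq2 size factors or total count scaling in edgeR, all genes with a read, only the libraries compared, a minimum log2 fold change of 1, thinned libraries, no mitochondrial genes and each library left out. Promoters were read with Python 3.11.15.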

Additional observations from a re-analysis of the deposited data

How the results depend on the processing

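The net change called 12064 genes, 11895 to 12456 under DESeq2, its size factors, total count scaling and no low-count filter, 11984 with the replicate block, 10489 of 13384 tested with the 6 libraries alone, and 11821 with thinned libraries. Same-numbered libraries showed no shared deviation from their window means (correlations -0.0138, 0.00189 and 0.0218). Such values cannot show whether equal numbers share a collection, and the labels do not say. Rises made up 44.8% of calls, 51.3% with the 6 libraries alone and 55.4% (6594 higher, 5301 lower) with total count scaling. Leaving out a library gave 11477 to 11841 net calls (5244 to 6044 higher, 5481 to 6563 lower), 6068 to 6894 in the middle step, 6567 to 7063 for the inner against the outer windows, and 1252 to 1328 of these without a net call. It gave 86 to 163 genes not detected at 12-18hpi and 20 to 46 not detected at 30-36hpi. The limit of 3 reads was kept with a library fewer, and the upper value of 163 came without 12-18hpi replicate 3.

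A minimum log2 fold change of 1 left 10536 net calls, 4903 in the middle step, 3284 for the inner windows, 814 of these without a net call, and 2182 genes lower in both net change and middle step. Total count scaling left 2018 genes lower in both and 13 genes not detected at 30-36hpi. A minimum fold change can only take calls away from each contrast. With total count scaling the median log2 fold change of all genes was 0.23, against -0.29. Why the scalings differ was not tested.

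Of 44 lists, 32 kept the sign of their median and the balance of their calls under every setting, and 12 did not, among them cumulus and sperm markers. With total count scaling cytosolic ribosomal proteins gave 78 higher and 0 lower and the subcortical maternal complex 0 and 13. Of 271 genes printed here with a net call, 20 lost it in at least 1 setting. The minimum log2 fold change alone took it from mt-Nd1, mt-Nd2, Dppa3 and Zp3. The 16 others were Zscan4b, Zscan4c, Zscan4d, Rps15a, Khdc3, Eif4e, Taf4, Npm1, Nol10, Mphosph10, Brix1, Trp53, Zcchc6, Nanog, mt-Co1 and mt-Cytb, and 6 of them (Eif4e, Npm1, Nol10, Mphosph10, Trp53 and Zcchc6) changed sign without a call with total count scaling, with log2 values of at most 0.14, as Nol10 did without 12-18hpi replicate 1 or 3. Adjusted p for mt-Co1 was 0.231 with total count scaling and 0.106 without 12-18hpi replicate 2. Depth limits genes with few reads: 1350 tested genes had at most 3 reads over the libraries of 12-18hpi and 1117 over those of 30-36hpi.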
